A study of Mus musculus with 6 samples.

Results

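Adipocyte genes were followed here through 6 RNA-sequencing libraries of mouse kidney. They are 10 of the 34714 rows of the count table, taken by symbol: 8 genes typical of white fat (Adipoq, Cfd, Lep, Retn, Plin1, Plin4, Cidec and Car3) and 2 typical of brown fat (Ucp1 and Cidea). They were picked because their counts varied between libraries, so their levels and their spread are given below as a description, with no test. Gene expression was measured in kidneys of male mice that were 8 weeks old at surgery, 10 days after the left ureter was tied off (unilateral ureteral obstruction, UUO), an operation after which the kidney scars. The tested libraries are 3 from miR-92b-/- mice, which carry the global deletion allele Mir-92bem22Cd549 on a C57BL/6JGpt background, and the libraries they are set against are 3 from wild-type mice, given as C57BL/6J. The deletion is in every tissue, fat included, and all 6 kidneys were obstructed per the treatment label, although the protocol text calls ligated kidneys nonfibrotic controls. Kidneys from sham surgery are not analysed here. Whether each replicate is its own animal is not stated in the labels, so any p-value measures the spread between these libraries, which may be technical.

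The white adipocyte stores triglyceride in a single large lipid droplet coated by perilipins, and it secretes hormones such as adiponectin and leptin into the blood. The brown adipocyte burns fatty acids for heat through the uncoupling protein UCP1. The kidney lies in a pad of perirenal fat that in mice holds both white and brown adipocytes, and a kidney taken for RNA may carry some of it. Several other fat genes, among them Fabp4, Pparg, Lpl and Cd36, are also used by endothelial, macrophage or tubule cells, so they say less about adipocytes.

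Counts below are the deposited reads per gene. CPM are the same counts brought to a common library size, with edgeR's TMM factors. The libraries held 44476507, 46804547 and 50769801 counts in the knockout and 38738204, 47893534 and 51932509 in the wild type, so that 3 counts, the floor set for a count of 0, correspond to 0.060 to 0.071 CPM. Intervals on counts cover counting error only, since reads without molecular identifiers are not independent molecules. Kidney markers were expressed in every library: Umod of the thick ascending limb at 615 to 3872 CPM and Lrp2 (megalin, an endocytic receptor of the proximal tubule) at 195 to 570 CPM. In bulk tissue, more cells of a type and more RNA per cell cannot be told apart.

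The promoters of 4 of the genes show what a shared level could be read against: Adipoq and Cfd, secreted proteins of the white adipocyte, Lep, its hormone of energy stores, and Ucp1 of the brown adipocyte. Each line gives the 250 bases before the annotated start (RefSeq, GRCm38.p6), from chr16:23146286-23146535 (plus strand), chr10:79890603-79890852 (plus), chr6:29059971-29060220 (plus) and chr8:83290098-83290347 (plus). Capitals mark matches on either strand to 1 of 4 motifs: AGGTCA, the single site of nuclear receptors such as PPARγ; DR1, a pair of AGGNCA repeats in the same direction with 1 base between them; TTNNGCAA, a C/EBP consensus; and the CCAAT box.
Adipoq: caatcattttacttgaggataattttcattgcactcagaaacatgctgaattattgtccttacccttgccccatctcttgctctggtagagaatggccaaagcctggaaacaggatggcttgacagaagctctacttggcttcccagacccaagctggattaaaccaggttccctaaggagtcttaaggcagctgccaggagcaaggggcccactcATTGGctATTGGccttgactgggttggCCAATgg
Cfd: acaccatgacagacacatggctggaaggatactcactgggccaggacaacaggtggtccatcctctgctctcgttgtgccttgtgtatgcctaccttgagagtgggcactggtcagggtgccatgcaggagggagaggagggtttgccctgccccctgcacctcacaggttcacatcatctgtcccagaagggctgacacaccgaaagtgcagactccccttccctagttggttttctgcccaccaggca
Lep: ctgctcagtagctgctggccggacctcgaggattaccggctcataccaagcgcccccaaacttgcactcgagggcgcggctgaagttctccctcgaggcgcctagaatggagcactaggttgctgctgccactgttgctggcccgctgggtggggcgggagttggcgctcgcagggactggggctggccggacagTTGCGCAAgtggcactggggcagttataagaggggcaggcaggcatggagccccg
Ucp1: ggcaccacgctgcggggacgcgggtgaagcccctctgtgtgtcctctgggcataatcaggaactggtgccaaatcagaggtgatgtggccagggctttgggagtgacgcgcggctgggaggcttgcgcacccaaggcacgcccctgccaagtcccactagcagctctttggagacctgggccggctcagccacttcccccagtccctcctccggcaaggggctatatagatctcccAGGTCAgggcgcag
Adipoq held 3 CCAAT boxes, whose first bases lie at -34, -27 and -7 from the start. Lep held 1 C/EBP match at -55, Ucp1 held 1 AGGTCA at -14, and Cfd held none of the motifs in this window. Promoters of 8 members were matched in RefSeq, with 9 windows in all, and 6 of the 8 genes held a match. The windows of Plin1 and Plin4, and 1 of the pair for Cidec, precede a start that lies inside the span given for the gene below, and they are not shown. No window held DR1. Over 32851 mouse promoter windows of the same length, CCAAT was present in 33.8%, AGGTCA in 14.0%, TTNNGCAA in 9.56% and DR1 in 0.338%. No matches of different motifs overlapped in these windows. These are matches of letters, not measured binding.

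Among the white fat genes, Cfd and Adipoq, both secreted, had the widest range between libraries, at 8.41 and 8.25 on the log2 scale from highest to lowest (counts under 3 set to 3). The same range was 7.05 for Retn, 7.04 for Plin1, 5.66 for Car3, 5.47 for Cidec, 2.06 for Plin4 and 1.98 for Lep. Adipoq (chromosome 16, 23146536 to 23157968), which encodes adiponectin, had 850, 2 and 26 counts in knockout replicates 1, 2 and 3, against 9, 227 and 2 counts in wild-type replicates 1, 2 and 3. In CPM these were 19.4, 0.043 and 0.516 in the knockout, against 0.212, 4.59 and 0.043 in the wild type. One library of each group was high, knockout replicate 1 and wild-type replicate 2, and the groups overlapped. Knockout replicate 1 lay 37.5 times above the next knockout library (95% exact binomial interval 25.4 to 57.8), and wild-type replicate 2 lay 21.7 times above the next wild-type library (11.2 to 48.0).

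Cfd (chromosome 10, 79890853 to 79892655) encodes adipsin, the complement protease factor D, which adipocytes make in large amounts. It had 5433, 17 and 120 counts (124, 0.365 and 2.38 CPM) in the knockout, against 57, 1520 and 19 counts (1.34, 30.7 and 0.404 CPM) in the wild type. The same pair of libraries stood out, with knockout replicate 1 at 52.0 times the next knockout library (43.4 to 62.8) and wild-type replicate 2 at 22.9 times the next wild-type library (17.6 to 30.4). Retn (chromosome 8, 3655770 to 3659818), which encodes resistin, an adipocyte hormone in mice, had 375, 0 and 9 counts in the knockout, against 17, 82 and 4 counts in the wild type. Resistin followed the same order within the knockout as Adipoq and Cfd, and the 0 in knockout replicate 2 has an exact 95% Poisson upper bound of 0.079 CPM. Lep (chromosome 6, 29060221 to 29073876), the gene of leptin, was close to absent, with 11, 0 and 4 counts in the knockout, against 2, 4 and 0 counts in the wild type. For Lep, the difference of knockout replicate 1 from the next knockout library, 3.16 times, lay within counting error (0.936 to 13.6).

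The lipid droplet genes showed the same libraries, with 1 exception in size. Plin1 (chromosome 7, 79721164 to 79732904), the perilipin that coats the adipocyte droplet and guards it from lipases, had 367, 2 and 10 counts in the knockout, against 3, 72 and 2 counts in the wild type. Cidec (chromosome 6, 113424634 to 113435760), which fuses small droplets into the large one of white fat, had 915, 22 and 43 counts (20.9, 0.472 and 0.854 CPM) in the knockout, against 20, 226 and 48 counts (0.470, 4.57 and 1.02 CPM) in the wild type. Cidec was detected in every library, and the lowest library still had 20 counts. Plin4 (chromosome 17, 56100587 to 56109948), a perilipin that is also made outside fat, had 1550, 572 and 428 counts (35.4, 12.3 and 8.50 CPM) in the knockout, against 565, 1180 and 578 counts (13.3, 23.9 and 12.3 CPM) in the wild type. Its other 4 libraries lay between 8.50 and 13.3 CPM, and knockout replicate 1 exceeded the next knockout library 2.88 times (2.61 to 3.17) and wild-type replicate 2 the next wild-type library 1.80 times (1.62 to 1.99). Cidec overlaps Gm52871, Car3 overlaps Gm41999, Cidea overlaps B430212C06Rik and Plin4 overlaps Hdgfl2 in the annotation, and since the strand setting of the counting is not given, reads in those stretches may be shared.

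Car3 (chromosome 3, 14863538 to 14872381) encodes a carbonic anhydrase that is abundant in adipocytes and in slow muscle. It had 5742, 121 and 243 counts (131, 2.60 and 4.83 CPM) in the knockout, against 197, 1773 and 127 counts (4.63, 35.9 and 2.70 CPM) in the wild type. Knockout replicate 1 was 27.1 times above the next knockout library (23.9 to 31.0) and wild-type replicate 2 was 7.74 times above the next wild-type library (6.68 to 9.01). Per kilobase of the longest GENCODE M21 transcript, the mean level over the 6 libraries was 28.8 CPM per kb for Cfd, 18.0 for Car3, 3.20 for Adipoq, 3.06 for Plin4, 2.74 for Cidec, 1.59 for Retn, 0.602 for Plin1, 0.171 for Cidea, 0.069 for Ucp1 and 0.023 for Lep. Within the 8 white fat genes, summed levels were 348, 15.8 and 17.5 CPM in the knockout, against 20.5, 103 and 16.6 CPM in the wild type. At its highest, in knockout replicate 1, this was 0.0343% of all counts of the library.

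**Figure D1:**
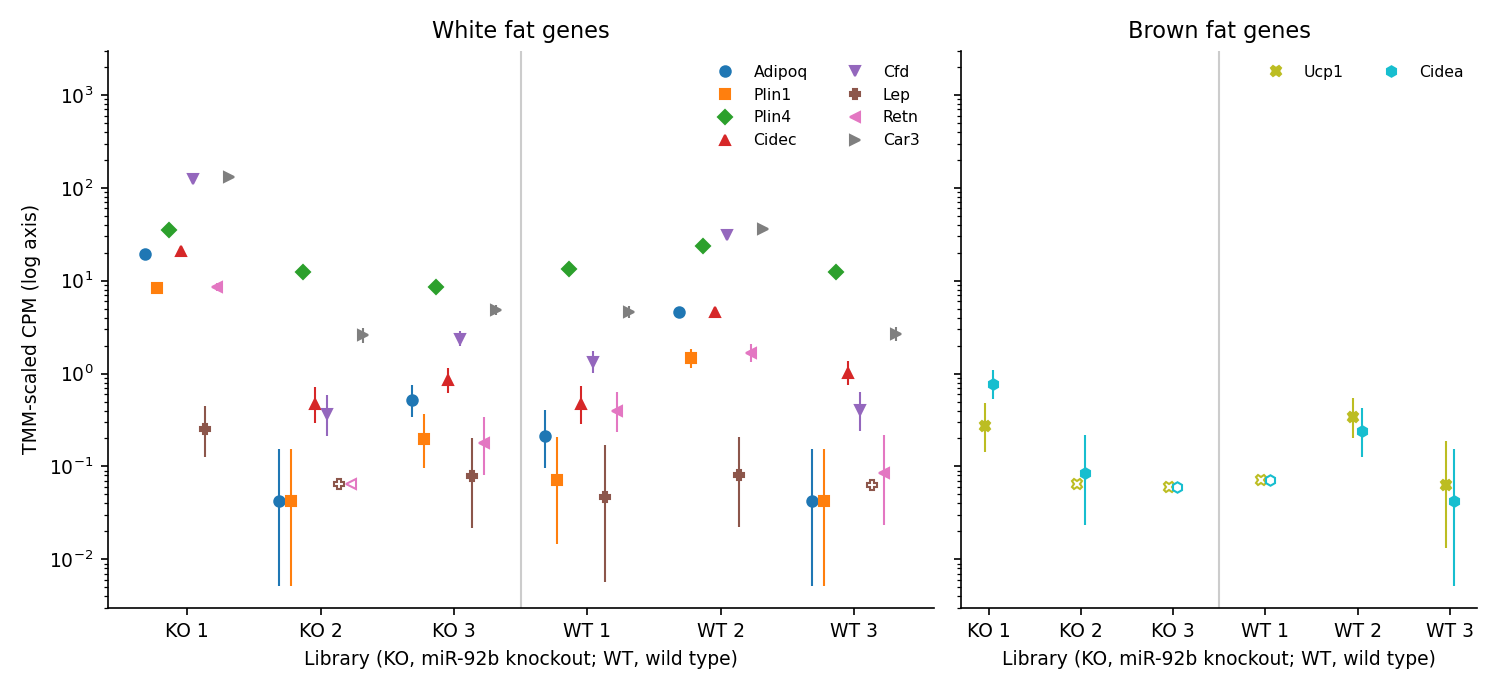
Level of each gene (TMM-scaled CPM, log axis) in the 3 knockout (KO) and 3 wild-type (WT) libraries, white fat genes on the left and brown fat genes on the right. Lines are 95% exact Poisson intervals of the count, and open symbols mark a count of 0, drawn at the level of 3 counts. Knockout replicate 1 and wild-type replicate 2 are the highest libraries of their groups for all 10 genes.

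The brown fat genes were at the edge of detection. Ucp1 (chromosome 8, 83290348 to 83298456), the heat-producing proton channel of brown fat mitochondria, had 12, 0 and 0 counts in the knockout, against 0, 17 and 3 counts in the wild type. Cidea (chromosome 18, 67343564 to 67367794), a droplet protein of brown and beige adipocytes, had 34, 4 and 0 counts in the knockout, against 0, 12 and 2 counts in the wild type. Both genes were highest in knockout replicate 1 and wild-type replicate 2 within their groups, as the white fat genes were. Ucp1 in knockout replicate 1 was at 4.25 times the level that 3 counts would give in knockout replicate 2, which had 0. Its exact 95% Poisson interval was 0.141 to 0.478 CPM, and the 0 has an upper bound of 0.079 CPM. In wild-type replicate 2, Ucp1 was 5.39 times the next wild-type library (1.56 to 28.7). Their summed level was 1.05, 0.086 and 0 CPM in the knockout, against 0, 0.587 and 0.106 CPM in the wild type.

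The 2 high libraries were also set against each other. Knockout replicate 1 exceeded wild-type replicate 2 for all 8 white fat genes: 5.75 times for Plin1 (95% exact binomial interval 4.45 to 7.51), 5.16 for Retn (4.05 to 6.63), 4.56 for Cidec (3.94 to 5.30), 4.22 for Adipoq (3.64 to 4.91), 4.03 for Cfd (3.81 to 4.27), 3.65 for Car3 (3.46 to 3.85), 3.10 for Lep (0.919 to 13.4) and 1.48 for Plin4 (1.37 to 1.60). Cidea showed a ratio of 3.19 (1.61 to 6.78), inside the range of the white fat genes. For Ucp1 the ratio was 0.796 (0.347 to 1.77), and its interval does not reach those of Adipoq, Cfd, Car3, Cidec, Retn or Plin1. These intervals compare 1 library with another, not the genotypes.

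**Figure D2:**
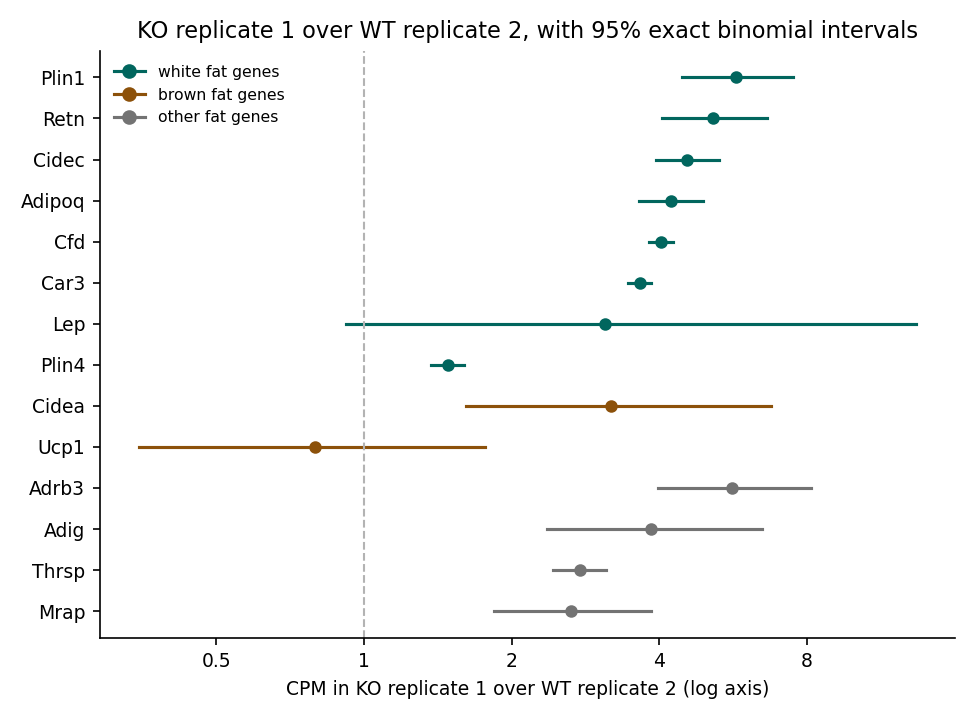
Ratio of CPM in knockout replicate 1 over wild-type replicate 2 (log axis) for the 8 white fat genes, the 2 brown fat genes and 4 other fat genes, with 95% exact binomial intervals of the counts. Most white fat genes lie between 3.65 and 5.75, Plin4 at 1.48 and Ucp1 at 0.796.

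Within a library, the white fat genes kept different proportions to Adipoq. For each Adipoq count there were 6.39, 8.50 and 4.62 counts of Cfd in knockout replicates 1, 2 and 3, against 6.33, 6.70 and 9.50 in wild-type replicates 1, 2 and 3. The ratios of knockout replicate 2 and wild-type replicate 3 rest on 2 Adipoq counts each. Across libraries whose Adipoq counts ran from 2 to 850, the Cfd proportion therefore stayed between 4.62 and 9.50. Car3 did not keep such a proportion, with 6.76, 60.5 and 9.35 counts per Adipoq count in the knockout, against 21.9, 7.81 and 63.5 in the wild type. For Plin4 the spread was wider still, at 1.82, 286 and 16.5 counts in the knockout, against 62.8, 5.20 and 289 in the wild type, because its counts outside the high libraries were 428 to 578 while those of Adipoq were 2 to 26.

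The low libraries were not alike either. Knockout replicate 3 had 26 Adipoq, 120 Cfd and 10 Plin1 counts, and knockout replicate 2 had 2, 17 and 2. Wild-type replicate 1 had 9, 57 and 3, and wild-type replicate 3 had 2, 19 and 2. Cidec ordered the wild type otherwise, with 48 counts in replicate 3 and 20 in replicate 1. Described over the 6 libraries, Pearson's r of log2 CPM with Adipoq was 0.999 for Cfd, 0.99 for Plin1, 0.98 for Car3, 0.95 for Retn, 0.94 for Lep, 0.93 for Cidec, 0.84 for Plin4, 0.80 for Ucp1 and 0.77 for Cidea. Without the 2 high libraries, r over the remaining 4 was 0.99 for Cfd and Lep, 0.95 for Car3 and Plin1 and 0.69 for Retn, but 0.086 for Cidec, -0.54 for Ucp1, -0.71 for Plin4 and -0.89 for Cidea. The values for Lep, Ucp1 and Cidea over these 4 libraries rest on counts of 0 to 4. Adipoq itself had 2 to 26 counts there, Plin1 2 to 10 and Retn 0 to 17, so all of these r rest on few counts.

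The comparison of knockout with wild type asks whether these genes differ between the groups in the obstructed kidney. The knockout is given on a C57BL/6JGpt background and the wild type as C57BL/6J. Loss of miR-92b and a difference in background therefore cannot be told apart, here or in any comparison of the groups below. Of the 10 genes, 6 passed the filter on low counts (Adipoq, Cfd, Retn, Cidec, Plin4 and Car3) and 4 did not (Lep, Plin1, Ucp1 and Cidea). Adipoq averaged 6.65 ± 11.0 CPM in the knockout and 1.62 ± 2.58 CPM in the wild type (SD, n = 3 each), Cfd 42.2 ± 70.8 and 10.8 ± 17.3 CPM, and Car3 46.1 ± 73.5 and 14.4 ± 18.6 CPM. In each of these the SD within a group exceeded its mean. The log2 fold change (knockout over wild type) was 2.03 ± 1.95 (SE) for Adipoq, 2.01 ± 1.76 for Retn, 1.96 ± 2.03 for Cfd, 1.86 ± 1.44 for Cidec, 1.68 ± 1.54 for Car3 and 0.18 ± 0.52 for Plin4. In a fit with no filter it was 2.43 ± 2.25 for Plin1, 1.52 ± 1.55 for Cidea, 1.31 ± 1.41 for Lep and -0.61 ± 1.59 for Ucp1. The 2 groups overlapped for all 10 genes, which was likely since they were picked for their spread between libraries. Of the 18927 genes tested, 16.1% had groups that did not overlap, a share given as background only. At an adjusted p under 0.05 the edgeR quasi-likelihood test called 0 genes of any kind (0% of those tested), with 829 higher and 666 lower at an unadjusted p under 0.05, so nothing can be read from the absence of a call among the 6.

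The sign of these fold changes was set by single libraries. Without knockout replicate 1, Adipoq stood at -2.51, Cfd at -2.97, Retn at -2.94, Car3 at -1.95, Cidec at -1.60 and Plin4 at -0.67. Without wild-type replicate 2, they stood at 5.71, 5.60, 3.58, 3.65, 3.30 and 0.55. When both were dropped, a choice made with the values in view, Adipoq was at 1.15, Cfd at 0.66, Car3 at 0.019, Cidec at -0.17 and Plin4 at -0.30, and Retn no longer passed the filter. Leaving out any 1 of the other 4 libraries kept the fold changes of the 6 genes above 0, at 1.18 or more for all but Plin4, which lay between 0.011 and 0.53.

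**Figure D3:**
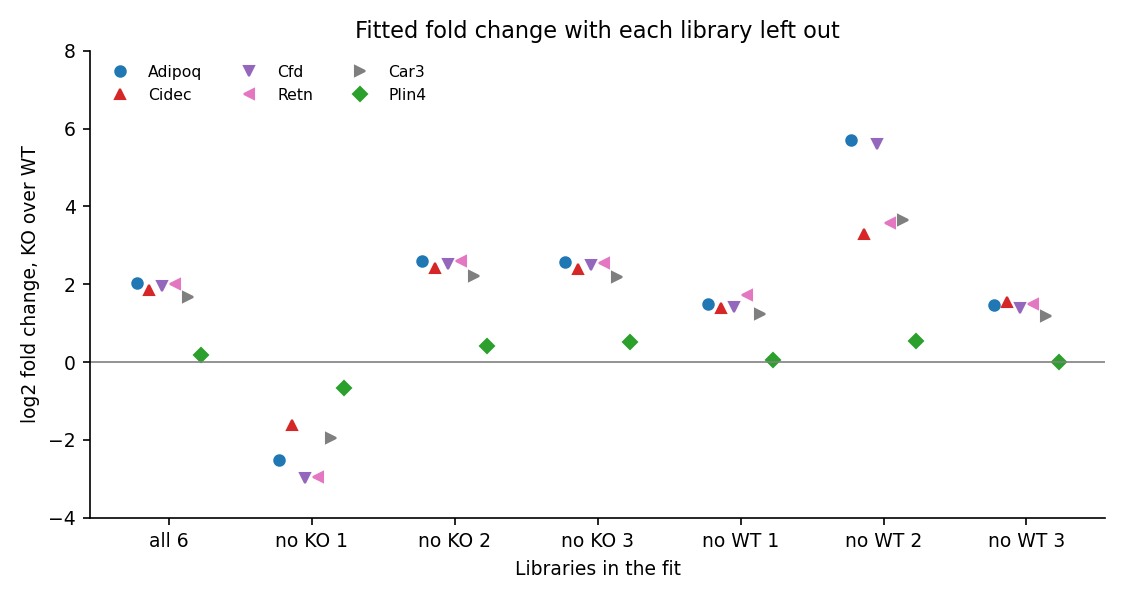
Log2 fold change (knockout over wild type, edgeR) of the 6 genes that passed the filter, with all 6 libraries and with each left out in turn. Without knockout replicate 1 all 6 genes lie below 0, from -0.67 to -2.97, and without wild-type replicate 2 they lie between 0.55 and 5.71.

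DESeq2, run as a second test, gave 5 of the 6 genes no p-value at all. Its rule withholds the p of a gene in which a single library has an outsized weight on the fit, and it did so for Adipoq, Cfd, Retn, Cidec and Car3. In the whole table this happened to 10 genes, or 0.0528% of those tested. The members were picked for their spread between libraries, so they were likely to meet this rule, and the share is given as background only. A further fat gene was among these 10, Adrb3, the adrenergic receptor through which fat is told to release fatty acids. The remaining 4 were Mest, Arg1, Saa3 and Gm38604, none of which was highest in knockout replicate 1.

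Over the whole table, few genes shared the pattern. Knockout replicate 1 was the highest knockout library and wild-type replicate 2 the highest wild-type library for 1401 of the 18927 genes tested (7.40%), and for all 6 of the adipocyte genes that were tested. Both libraries lay at least 2-fold above the others of their group for 14 genes (0.0740%). Of the 14, 5 were members (Car3, Cfd, Cidec, Adipoq and Retn), whose spread was the reason they were picked. Another 4 came from lists of fat genes that hold none of the members and were named after their values were seen: Thrsp, a nuclear regulator of fatty acid synthesis, Adrb3, Mrap, a receptor accessory protein of adipocytes and the adrenal, and Adig (adipogenin), a protein of the adipocyte droplet. Thrsp had 20.0, 3.35 and 3.50 CPM in the knockout, against 3.13, 7.28 and 2.81 CPM in the wild type. Adrb3 had 4.45, 0.301 and 0.218 CPM in the knockout, against 0.212, 0.789 and 0.128 CPM in the wild type. Mrap had 2.35, 0.429 and 0.457 CPM in the knockout, against 0.423, 0.890 and 0.255 CPM in the wild type. Adig had 75, 7 and 6 counts in the knockout, against 9, 22 and 5 counts in the wild type. Their ratios of knockout replicate 1 over wild-type replicate 2 were 2.75 (2.43 to 3.12) for Thrsp, 5.64 (3.98 to 8.17) for Adrb3, 2.64 (1.84 to 3.85) for Mrap and 3.84 (2.36 to 6.49) for Adig.

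**Figure D4:**
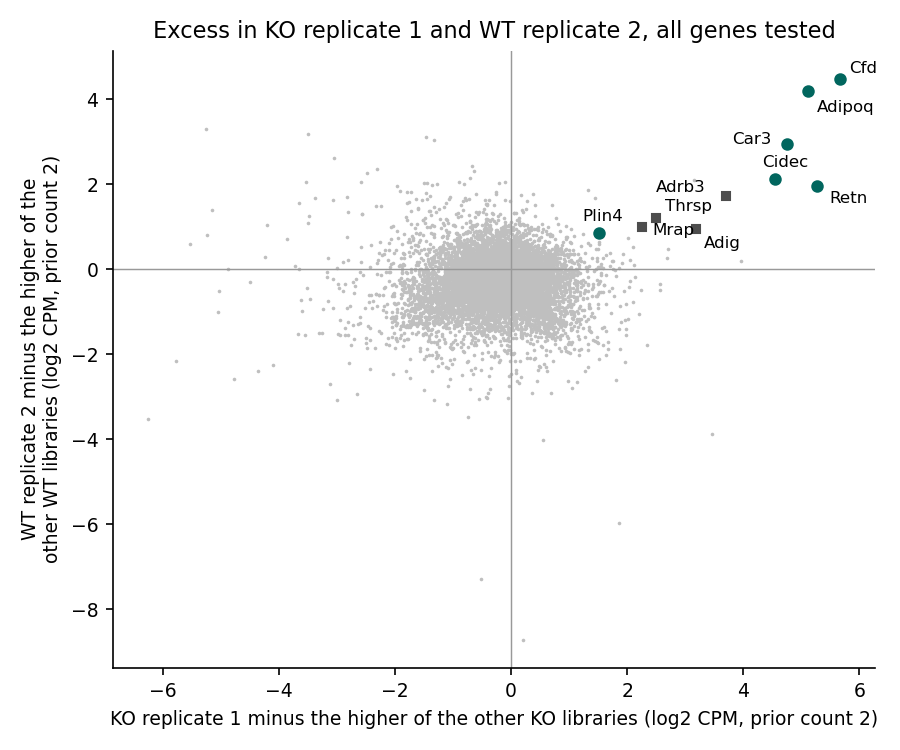
Excess of knockout replicate 1 over the higher of the other knockout libraries (x axis) and of wild-type replicate 2 over the higher of the other wild-type libraries (y axis), in log2 CPM with a prior count of 2, for the 18927 genes tested (grey). The 6 adipocyte genes that were tested (green) and Thrsp, Adrb3, Mrap and Adig (dark squares) lie at the upper right, with Cfd and Adipoq farthest from the origin.

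Other fat-related genes were counted from lists chosen by function. Of 11 adipocyte differentiation factors tested, 16 genes of triglyceride synthesis and storage, 14 of lipolysis, 14 of fatty acid uptake and binding, 12 of fatty acid synthesis, 12 of insulin and glucose handling, and 11 further adipocyte genes, 0 were called by edgeR, which called 0% of all genes. Their median log2 fold changes were 0.19, 0.13, 0.076, 0.23, 0.36, 0.16 and 0.36, in the order of the lists, beside -0.018 over all genes tested. Leaving out 1 library at a time gave medians of 0.0079 to 0.23, -0.12 to 0.36, -0.016 to 0.22, 0.098 to 0.30, -0.080 to 0.56, 0.081 to 0.21 and -0.34 to 0.76, in the same order. The lowest of these came without knockout replicate 1, except for the differentiation factors (without knockout replicate 3) and the insulin and glucose genes (without wild-type replicate 1). Storage genes also turned to -0.056 without wild-type replicate 1, so the direction of the medians for storage, lipolysis, fatty acid synthesis and the further adipocyte genes rests on single libraries. The 2 high libraries were highest in their groups for 1, 1, 3, 2, 5, 3 and 4 of these genes, in the same order. Pparg, the master regulator of adipocyte differentiation, had 7.69, 7.41 and 6.73 CPM in the knockout, against 5.39, 9.99 and 7.10 CPM in the wild type. Fabp4, a fatty acid carrier of adipocytes and of endothelium, had 124, 42.4 and 133 CPM in the knockout, against 98.8, 55.4 and 56.7 CPM in the wild type. Lipe, the hormone-sensitive lipase, had 36.0, 21.1 and 18.2 CPM in the knockout, against 20.3, 19.8 and 18.0 CPM in the wild type. So Pparg, Fabp4 and Lipe were present in every library, and none of them was 2-fold above the rest in both high libraries. Plin2, the perilipin of most cell types, had 176, 160 and 253 CPM in the knockout, against 108, 122 and 200 CPM in the wild type. Pnpla2 (log2 fold change 0.11 ± 0.18), Lpl (-0.36 ± 0.42), Cd36 (-0.16 ± 0.64), Cebpa (0.41 ± 0.18) and the glucose transporter Slc2a4 (-0.30 ± 0.21) did not pass either (edgeR adjusted p = 0.852, 0.789, 0.943, 0.627 and 0.674).

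Angptl4 and Acly, both from these lists, had groups that did not overlap and were called by DESeq2 but not by edgeR. Angptl4, a secreted inhibitor of lipoprotein lipase, had 190, 130 and 145 CPM in the knockout, against 80.3, 62.6 and 92.3 CPM in the wild type (log2 fold change 0.99 ± 0.20; edgeR adjusted p = 0.627, DESeq2 adjusted p = 0.0140). Acly, which makes acetyl-CoA for fatty acid synthesis, had 236, 230 and 280 CPM in the knockout, against 102, 160 and 150 CPM in the wild type (0.86 ± 0.20; edgeR adjusted p = 0.627, DESeq2 adjusted p = 0.0475). DESeq2 called 34 genes higher (0.180%) and 28 lower (0.148%). Neither Angptl4 nor Acly followed the fat genes, since wild-type replicate 2 was not high in Angptl4 and knockout replicate 3 was the highest for Acly.

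Further brown fat genes were counted from a list in the same way. Of 28 in the list, 21 were tested and 0 were called. The median log2 fold change was 0.0052 (-0.17 without knockout replicate 1 and 0.17 without knockout replicate 3). Of the 21, 3 were highest in both high libraries, beside 7.40% of all genes tested. Many of the 21 were well expressed in every library, such as Gk (116 to 374 CPM) and Ppara (25.4 to 66.0 CPM). A contribution at the level of Ucp1 could not be seen in those. Cited1 did not pass the filter but was highest in both. It had 19, 5 and 8 counts in the knockout, against 8, 13 and 5 in the wild type. Cox8b, a respiratory subunit of brown fat and muscle, had 27, 0 and 0 counts in the knockout, against 5, 0 and 0 counts in the wild type, so the wild-type library with the most Ucp1 had none. Dio2, the deiodinase that activates thyroid hormone in brown fat and elsewhere, had 3.10, 14.1 and 3.50 CPM in the knockout, against 12.6, 9.43 and 1.04 CPM in the wild type. Prdm16 and Ppargc1a, regulators of the brown fat program that kidney cells also express, were highest in both, but within a narrow range of 21.3 to 40.3 CPM and 31.9 to 75.8 CPM over the 6 libraries. Otop1 had 2 counts, in wild-type replicate 2 alone. Elovl3 had 2 counts in knockout replicate 1 and 2 in wild-type replicate 1. Zic1 and Lhx8, also in the list, had a count of 0 in all 6 libraries. With Ucp1 itself at no more than 17 counts in any library, these zeros say little about brown fat. Cox7a1 was at -0.74 ± 0.34 (edgeR adjusted p = 0.627).

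Markers of other tissues next to the kidney were followed to see where they were high. Summed levels of 12 genes of the mesothelium, the cells of the peritoneal lining, were 188, 242 and 273 CPM in the knockout, against 191, 334 and 214 CPM in the wild type. Of 10 tested, 0 were highest in both high libraries, beside 7.40% of all genes tested, a share at which 0 of 10 says little. Krt19, Gpm6a and Upk1b carried most of the highest sum, with 158, 69.1 and 58.2 CPM in wild-type replicate 2, so the sum says little about the rest. Muc16 and Lrrn4 did not pass the filter. Muc16 had 76, 6 and 17 counts in the knockout, against 4, 4 and 0 in the wild type. Lrrn4 had 44, 3 and 120 counts in the knockout, against 3, 8 and 0 in the wild type. Summed levels of 10 adrenal cortex genes were 14.9, 17.2 and 50.1 CPM in the knockout, against 28.6, 15.8 and 14.4 CPM in the wild type. Akr1b7, a reductase of the adrenal cortex that other tissues also make, carried most of the highest sum, with 40.1 CPM in knockout replicate 3. Of the steroid-making enzymes, Cyp11b2 was at 0 in all libraries, Cyp11b1 had 2, 33 and 7 counts in the knockout, against 4, 5 and 0 counts in the wild type, and Cyp11a1 had 8 to 19 counts over the 6 libraries. The 18 genes of adipose stroma and progenitors, many of them shared with kidney fibroblasts, summed to 1920, 2530 and 2435 CPM in the knockout, against 1987, 2073 and 2306 CPM in the wild type. The 17 kidney epithelial genes summed to 9472, 7361 and 4214 CPM in the knockout, against 4845, 8709 and 8805 CPM in the wild type. Of the 17, 6 were highest in both high libraries, Umod among them, beside 7.40% of all genes tested. Umod alone held 3773 CPM of the sum in knockout replicate 1, while Lcn2 and Nphs1 were lowest there within the knockout. Thus this sum, though not every gene in it, was highest in replicate 1 among the knockout libraries. The part of this in the fat gene levels was not tested.

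**Figure D5:**
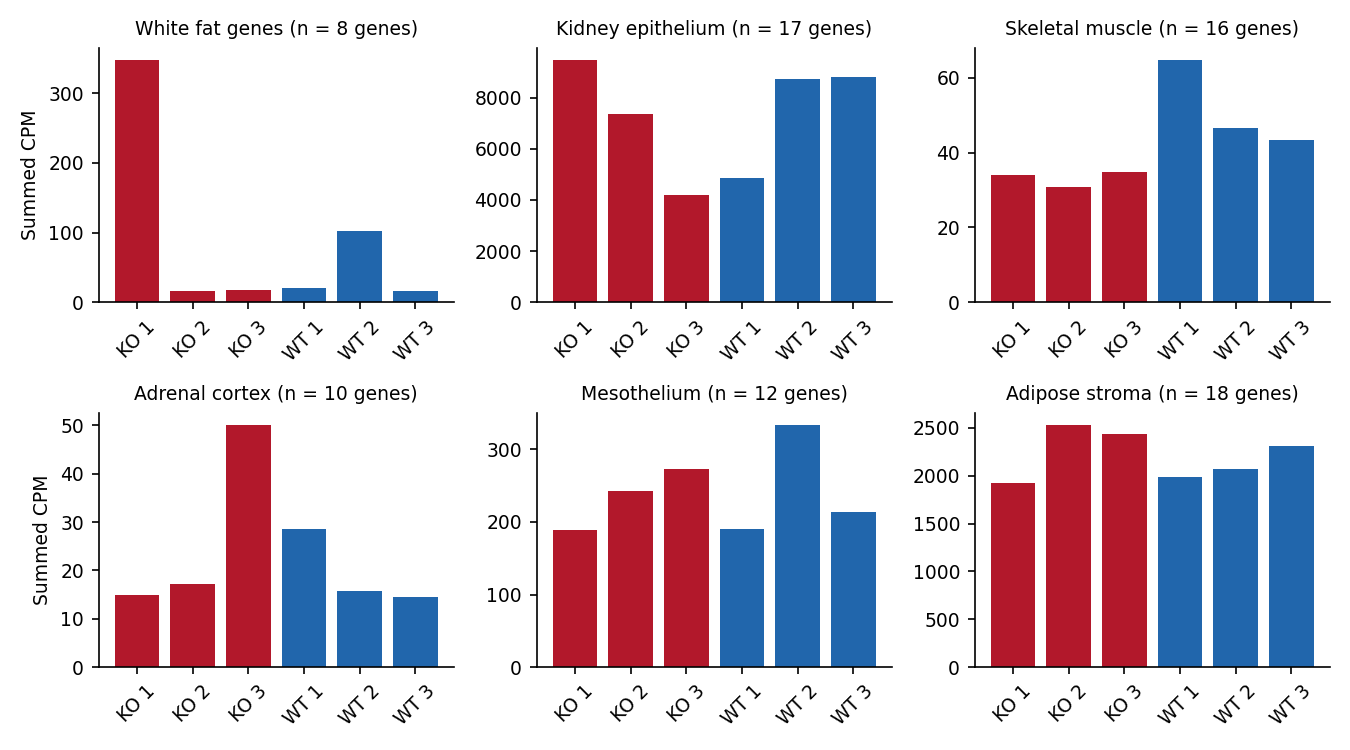
Summed CPM of 6 gene lists in the 3 knockout (red) and 3 wild-type (blue) libraries, on linear axes that start at 0 and differ between panels. White fat genes reach 348 CPM in knockout replicate 1 and 103 CPM in wild-type replicate 2, with the other libraries at 15.8 to 20.5 CPM, and none of the other 5 lists shown is highest in both of these libraries.

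The remaining lists gave these values. Skeletal muscle genes had a median log2 fold change of -2.20 over 13 tested, and 10 of the 13 had groups that did not overlap, all lower in the knockout (16.1% of all genes did not overlap in either direction). Some of these, such as Myh1 and Myh4 with 0 counts in every knockout library, passed the filter only through the wild type. With a filter of 1 CPM in 3 libraries the muscle median moved to -0.93. Plasma and B cell genes had a median of 0.24 over 9, erythrocyte genes 0.42 over 6, lipid-laden macrophage genes 0.34 over 8, adipose stroma 0.48 over 18, mesothelium 0.48 over 10, adrenal cortex 0.0044 over 7, adrenal medulla -0.54 over 2 and kidney epithelium -0.14 over 17. With 1 library left out at a time, the medians ran from -2.32 to -1.76 for muscle, 0.13 to 0.49 for plasma and B cells, 0.25 to 0.69 for erythrocytes, -0.093 to 0.58 for macrophages, 0.18 to 0.73 for stroma, 0.14 to 1.28 for mesothelium, -0.19 to 0.10 for adrenal cortex, -0.92 to -0.26 for adrenal medulla and -0.34 to -0.015 for kidney epithelium. Knockout replicate 3 had most weight on several of them: without it stood the lowest values of macrophages, stroma, mesothelium and adrenal cortex and the highest of plasma and B cells and kidney epithelium. The highest mesothelial median came without wild-type replicate 2, and the highest stroma and erythrocyte medians without wild-type replicate 1. In all of these edgeR called 0 genes, and DESeq2 called 8: Jchain and Col15a1 higher, and Myh1, Myh4, Acta1, Ckm, Tnnt3 and Tnnc2 lower. Of the 196 list genes tested that are no members, 32 (16.3%) were highest in knockout replicate 1 and in wild-type replicate 2 within their groups, beside 7.40% of all genes. This share pools fat lists with those of other tissues, and the kidney epithelium list gave the most, 6 of its 17 genes. The lists were chosen with earlier results of these data known.

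The genes most like Adipoq over the 6 libraries were ranked by Pearson's r of log2 CPM among 14258 genes that are no members, average at least 1 CPM and are not predicted genes. The first 10 were Akap7, Cc2d2a, Itih4, Plppr1, Zfp551, Thrsp, Zscan30, Npy6r, Zfp937 and Adrb3, with r between 0.91 and 0.98, given as a description. Likeness in r did not mean likeness in size. Akap7 varied 1.10-fold between its highest and lowest library and Cc2d2a 1.20-fold, against 34.8-fold for Adrb3, 8.50-fold for Itih4 and 7.14-fold for Thrsp. For Ucp1 the first 10 were Lix1, Fn3krp, Ccdc30, Tmprss2, AI429214, Lurap1, Ndrg2, Tox3, Efemp1 and Capsl, with r between 0.92 and 0.99. The largest range among these was 1.62-fold, for Tox3, and none is in a list of brown fat genes.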

How the data were processed

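The data are bulk RNA-sequencing libraries of ligated mouse kidneys, 3 from miR-92b-/- and 3 from wild-type mice. RNeasy columns and a SMARTer mRNA kit were used, per the labels' protocols. The authors deposited whole-number counts per gene symbol, 1 column per library, not normalized. GRCm38 and mm10 are listed in the submitters' processing notes, while aligner, counter and strand setting are not given in those sources. The knockout columns carry the parts of the description's name in another order and were matched by those parts and the replicate number.

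The filterByExpr rule left 18927 genes, holding 99.96% of the counts. After TMM scaling, edgeR 4.0.16 (R 4.3.3) fitted group as the only term, robustly, and tested it by quasi-likelihood, with Benjamini-Hochberg adjustment over all genes tested and a threshold of 0.05. Standard errors were taken from the fold change and the F statistic. The test was checked on simulated counts. Log2 CPM used a prior count of 2. DESeq2 1.42.0 (Wald test), other scalings, other filters, a replicate block and leaving out libraries were alternatives.

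Counts have exact Poisson and ratios of counts exact binomial 95% intervals. Coordinates are from RefSeq, GRCm38.p6, and transcript lengths from GENCODE M21. The members and lists were chosen with earlier results of these data known. Named genes were the 10 members, up to 3 genes per list of smallest p among those averaging 1 CPM or more, a set of fat and kidney genes, and the 10 genes most like Adipoq and Ucp1; from the lists, only those that bear on a result are described. Other names were chosen after their values were seen.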

Additional observations from a re-analysis of the deposited data

How the results depend on the processing

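With all libraries edgeR called 0 genes higher and 0 lower, and 0 of either among the list genes that are no members. The DESeq2 Wald test called 34 higher and 28 lower, of which 4 and 6 were list genes. With no filter there was 1 higher and 1 lower, Jchain and Myh4, both list genes. The fit with the replicate number as a block called 1 higher, Jchain. Leaving out 1 library gave 0 to 1 higher, again Jchain, without knockout replicate 3, and 0 lower. The other scalings, the stricter filter and leaving out knockout replicate 1 with wild-type replicate 2 gave 0. Same-numbered libraries did not deviate together (r = -0.28, 0.18 and -0.29), and differently numbered ones had r between -0.20 and 0.37. With 3 libraries in each group, these values cannot show whether the numbers pair the samples.

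Under scaling by library size alone, by upper quartile or by DESeq2's factors, 66 of 66 values of the fat genes (fold changes, highest to lowest ratios and summed levels) moved by less than 1 SD between replicates. That is a loose measure, since the SD within a group exceeded the mean for Adipoq, Cfd and Car3. In these 3 scalings the fold change was 1.96 to 2.02 for Adipoq, 1.89 to 1.95 for Cfd and 0.14 to 0.18 for Plin4. Under the replicate block Adipoq was at 2.38, Cfd at 2.12, Car3 at 0.75, Cidec at 0.21, Retn at 0.61 and Plin4 at -0.050. Leaving out knockout replicate 1 turned the fold changes of the 6 tested genes, from -0.67 to -2.97, and none was called. Lep, Ucp1 and Cidea hold 21, 32 and 52 counts in all, which limits any statement on them.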

Other observations

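Of the 14 genes at least 2-fold above the rest in both knockout replicate 1 and wild-type replicate 2, 5 stand in no list. Serpina3c had 2.46, 0.172 and 0.238 CPM in the knockout, against 0.094, 0.546 and 0.043 CPM in the wild type. Its ratio of knockout replicate 1 over wild-type replicate 2, 4.51 (95% exact binomial interval 2.94 to 7.15), lay in the range of the white fat genes. Itih4, an inhibitor heavy chain found in plasma, had 6.20, 0.730 and 2.26 CPM in the knockout, against 0.800, 2.63 and 0.766 CPM in the wild type. Abi2, a regulator of actin assembly, had 44.0, 17.5 and 13.4 CPM in the knockout, against 3.91, 47.1 and 12.9 CPM in the wild type, and its ratio of 0.936 (0.880 to 0.994) lay below those of the white fat genes. The other two carry clone names that end in Rik.

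Of 13 skeletal muscle genes tested, 10 had lower values in every knockout library than in any wild-type library. Over all genes tested, 16.1% had groups that did not overlap in either direction. Some of the 10, Myh4 among them, passed the filter on low counts only through the wild type. With a filter of 1 CPM in 3 libraries the list median moved from -2.20 to -0.93. Myh4, a fast myosin heavy chain, had 0 counts in all 3 knockout libraries, against 61, 53 and 52 counts in the wild type. Acta1, skeletal actin, had 0.433, 0.365 and 0.199 CPM in the knockout, against 1.43, 1.80 and 1.49 CPM in the wild type. edgeR called neither (adjusted p = 0.233 for Myh4 and 0.627 for Acta1), and DESeq2 called both. Actn3, a sarcomere protein of fast fibres, was among the 3 whose groups overlapped, with 1.25, 1.01 and 1.41 CPM in the knockout, against 1.51, 1.15 and 1.00 CPM in the wild type. Mest, Arg1 and Saa3, for which DESeq2 gave no p as for the fat genes, were highest in knockout replicate 3, at 42.9, 33.1 and 24.1 CPM, where the other knockout libraries had at most 3.82, 1.05 and 0.593 CPM. In the wild type, replicate 1 was the highest for Mest and Arg1, at 14.9 and 12.0 CPM, where the other wild-type libraries had at most 3.36 and 0.991 CPM, and Saa3 was at 0.234 to 1.56 CPM.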
